A study of Mus musculus with 6 samples.

Results

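The guanylate-binding proteins examined were Gbp2, Gbp3, Gbp4, Gbp5, Gbp6, Gbp7, Gbp8 and Gbp9, taken by gene symbol from the deposited table, 8 of 15415 genes listed. RNA sequencing had been performed on peritoneal macrophages (PEMs), cells collected from the mouse peritoneal cavity after injection of starch solution, in 6 libraries. The control group (PEM-Control, 3 libraries) was of the genotype Tim-4 fl/fl, and in the knockout group (PEM-CKO, 3 libraries) the transgene LysM-Cre had been added to it. Both groups carried the floxed Tim-4 allele on the C57BL/6J background, the mice of the study were young adult males, and the treatment entry of every library reads lps, without dose or time. LysM-Cre is an insertion in the lysozyme gene Lyz2, which is active in macrophages, monocytes and neutrophils, so the deletion is not restricted to macrophages. No source says whether a library came from 1 mouse or several, so the p-values measure the spread between these libraries, which may be technical. The libraries held between 36170767 and 42217558 reads counted to genes.

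The groups were taken from the titles, because the genotype entry names them the other way round. Timd4, the gene of Tim-4, measured 0.333, 0.394 and 0.246 FPKM (fragments per gene, scaled for gene length and library size) in knockout libraries 1, 2 and 3, and 19.5, 12.0 and 1.19 FPKM in control libraries 1, 2 and 3, so the titles and not the genotype entry go with the Timd4 level. Lyz2 measured 41.4, 4656 and 106 FPKM in the knockouts and 7090, 7171 and 8482 FPKM in the controls, and knockout library 2 stood apart from knockout libraries 1 and 3. The control genotype is without LysM-Cre, so the presence of Cre and the lower Lyz2 cannot be told apart from the loss of Tim-4. Control library 3 had the lowest Timd4 of its group. The limma adjusted p of Timd4, from the fit described below, was 0.0715, and 0.0436 with replicate numbers as a block. Timd4 reached the mean of 1 FPKM needed for that fit in the controls alone, so both values are given as a description. The summed FPKM of the macrophage markers Adgre1, Itgam, Csf1r, Cd68, Cd14 and Mertk was 2563 to 2840 in the knockouts and 2188 to 2659 in the controls, with Cd68 as its largest part. None of the 6 passed in limma or voom, 3 had an unadjusted limma p under 0.05, and they went both ways: Cd68 was higher in every knockout than in any control (log2 fold change 0.62), and Csf1r (-0.71) and Cd14 (-0.73) were lower.

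Guanylate-binding proteins are large GTPases that cells make in quantity after exposure to interferons, above all interferon-γ, in part through the transcription factor IRF1. They assemble on the vacuoles and membranes of bacteria and protozoa inside macrophages, bind bacterial lipopolysaccharide, and help to activate caspase-11, the product of Casp4, and other inflammasome proteins. The mouse genes lie in clusters on chromosomes 3 and 5. Of the 8 genes, Gbp2, Gbp3, Gbp5 and Gbp7 lie in the cluster on chromosome 3 and Gbp4, Gbp6, Gbp8 and Gbp9 in the cluster on chromosome 5.

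Promoter windows are shown for the chromosome 3 genes, the most abundant of the 8. The windows of the chromosome 5 genes were not analysed here, so the motifs are not compared between the clusters. Each window runs from 250 bases before to 50 bases after an annotated start, 300 bases in all, on the plus strand of RefSeq's GRCm38.p6 assembly, and capitals mark matches to 3 motifs. The motifs were the interferon-stimulated response element core (ISRE, a pair of GAAA with any 2 bases between), the palindromic interferon-γ activation site (GAS, TTCNNNGAA) and the NF-κB consensus, each read on both strands. Gbp5 lies at chr3:142496684-142496983, Gbp7 at chr3:142530086-142530385, the first of 2 starts of Gbp3 at chr3:142559794-142560093, and Gbp2 at chr3:142620413-142620712.
Gbp5: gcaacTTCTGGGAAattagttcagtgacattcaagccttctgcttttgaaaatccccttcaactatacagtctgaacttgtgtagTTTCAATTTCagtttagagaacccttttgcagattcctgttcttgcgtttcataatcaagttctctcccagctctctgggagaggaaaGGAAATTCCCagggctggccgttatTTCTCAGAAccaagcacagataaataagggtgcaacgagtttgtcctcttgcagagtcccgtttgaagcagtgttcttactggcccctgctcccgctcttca
Gbp7: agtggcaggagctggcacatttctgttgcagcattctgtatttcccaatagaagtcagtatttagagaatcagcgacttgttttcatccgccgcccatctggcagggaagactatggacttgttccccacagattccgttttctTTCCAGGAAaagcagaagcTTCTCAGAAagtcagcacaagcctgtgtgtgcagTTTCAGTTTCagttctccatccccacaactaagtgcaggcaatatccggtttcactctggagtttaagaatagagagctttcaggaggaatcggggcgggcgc
Gbp3: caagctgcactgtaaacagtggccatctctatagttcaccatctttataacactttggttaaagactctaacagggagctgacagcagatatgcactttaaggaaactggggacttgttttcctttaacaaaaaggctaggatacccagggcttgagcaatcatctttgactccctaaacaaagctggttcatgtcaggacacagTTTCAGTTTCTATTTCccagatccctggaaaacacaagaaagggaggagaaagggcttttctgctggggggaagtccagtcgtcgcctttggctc
Gbp2: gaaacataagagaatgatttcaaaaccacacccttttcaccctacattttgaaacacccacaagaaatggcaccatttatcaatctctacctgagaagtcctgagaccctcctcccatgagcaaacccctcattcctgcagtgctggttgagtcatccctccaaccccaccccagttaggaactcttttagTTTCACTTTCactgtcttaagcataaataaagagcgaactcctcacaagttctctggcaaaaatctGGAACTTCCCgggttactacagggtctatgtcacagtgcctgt

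All 4 windows held the ISRE core, which was found in 3.44% of 32851 windows of the same length over 27025 genes. In Gbp2 it lay 59 to 50 bases before the start, in Gbp7 53 to 44 bases and in Gbp5 165 to 156 bases. Gbp3 had a pair of overlapping matches, at 45 to 36 and 39 to 30 bases before the first start, and no motif match in the window of the second start. Gbp5 and Gbp7 each had 2 GAS matches (8.3% of windows hold at least 1), and the nearer match in Gbp5 lay 52 to 44 bases before the start. The NF-κB consensus (8.46% of windows) matched in Gbp5 at 77 to 68 bases before the start, where no base is shared with either GAS match, and in Gbp2 just after the start. A letter match describes the window and does not show a bound site.

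The chromosome 3 genes Gbp5, Gbp2, Gbp3 and Gbp7 were the most abundant of the family in both groups, and each measured higher in every knockout library than in any control library, by a ratio of group means between 1.79 and 2.12. Groups separated in this direction were seen for 11.1% of the genes tested, and groups separated in the opposite direction for 23%. The chromosome 5 genes Gbp6, Gbp9, Gbp4 and Gbp8 had lower levels, and the libraries of the groups overlapped for each of them. With all 6 libraries in limma on log2(FPKM + 1), none of the 7 genes tested passed an adjusted p of 0.05 (7.31% of the 9030 genes tested did; 2.57% were higher and 4.74% lower in the knockouts), and 2 of the 7, Gbp5 and Gbp2, had an unadjusted p under 0.05 (27.6% of genes). In voom on the recovered reads none of the 7 passed. When the replicate number entered limma as a block, Gbp5 and Gbp2 passed (9.47% of genes passed, 3.9% as higher). No label gives such a pairing of the libraries. In whole-cell RNA, fewer cells of a type and less RNA per cell cannot be told apart.

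**Figure D1:**
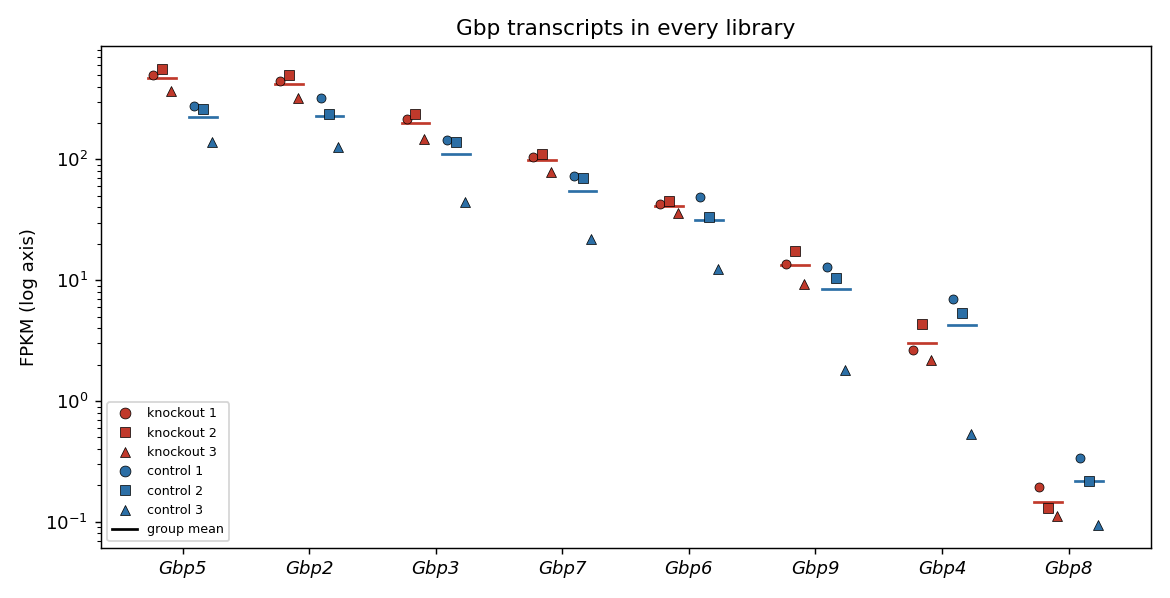
FPKM of the 8 genes (log axis) in each library, with knockout libraries in red, control libraries in blue, the replicate number by marker shape and group means as bars. The red points lie above all blue points for Gbp5, Gbp2, Gbp3 and Gbp7, and the triangle of control library 3 is the lowest point of each gene.

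Gbp5, a lipid-anchored member with roles in inflammasome activation, measured 495, 562 and 369 FPKM in knockout libraries 1, 2 and 3 and 274, 259 and 138 FPKM in control libraries 1, 2 and 3. The groups did not overlap, with the lowest knockout above the highest control. The means were 475 ± 98.2 and 224 ± 74.6 FPKM (SD, n = 3 each), a log2 fold change of 1.12 (SE 0.29, 95% interval 0.44 to 1.81). The limma adjusted p was 0.0598. With the replicate block the SE fell to 0.16 and the limma adjusted p to 0.0200. The gene also passed without control library 1 (log2 fold change 1.30, limma adjusted p 0.0487) and without control library 3 (0.81, limma adjusted p 0.0377). It did not pass without knockout library 1, 2 or 3 or without control library 2 (limma adjusted p 0.0704 to 0.225). By replicate number, the ratio of knockout to control was 1.81, 2.17 and 2.67.

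Gbp2, another lipid-anchored member that coats pathogen vacuoles, measured 441, 500.1 and 323 FPKM in the knockouts and 320.8, 236 and 127 FPKM in the controls. Knockout library 3 lay just above control library 1, so the gap between the groups was narrow. The means were 422 ± 90.2 and 228 ± 97.0 FPKM (SD, n = 3 each), a log2 fold change of 0.96 (SE 0.34, 95% interval 0.16 to 1.75). The limma adjusted p was 0.125 (unadjusted 0.0247 in limma), and with the replicate block 0.0422 at an SE of 0.20. The ratios by replicate number were 1.38, 2.11 and 2.54.

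Gbp3 measured 217, 236 and 148 FPKM in the knockouts and 146, 139.7 and 43.9 FPKM in the controls. Again knockout library 3 was close to control library 1, and control library 3 was far below the rest. The log2 fold change was 1.02 (SE 0.46, 95% interval -0.05 to 2.09, limma adjusted p 0.199).

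Gbp7 measured 104, 111 and 79.2 FPKM in the knockouts and 72.4, 70.6 and 21.8 FPKM in the controls, the same order of libraries within each group as for Gbp3. The log2 fold change was 0.996 (SE 0.44, 95% interval -0.04 to 2.03, limma adjusted p 0.195). With the block, neither Gbp3 (limma adjusted p 0.0582) nor Gbp7 (0.0755) passed. The exact permutation test over 3 against 3 libraries gave a two-sided p of 0.1 for each of the 4 chromosome 3 genes, the smallest value this design allows.

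Gbp6 was the most abundant gene of the chromosome 5 cluster, with 42.7, 45.5 and 36.2 FPKM in the knockouts and 48.6, 33.2 and 12.3 FPKM in the controls. Control library 1 was the highest of all 6 and control library 3 the lowest. The means were 41.5 ± 4.74 and 31.4 ± 18.2 FPKM (SD, n = 3 each), a log2 fold change of 0.58 (SE 0.44, 95% interval -0.45 to 1.61, limma adjusted p 0.422). Without control library 3 it was 0.04. The Gbp6 level is uncertain for another reason: 49.9% of its 50-base stretches occur in another family gene, 45.9% in Gbp10, so that the counting could have divided reads between them. For the chromosome 3 genes this share was between 0 and 3.8%, with 0 for Gbp5, and for Gbp4, Gbp9 and Gbp8 it was 7.5%, 8.0% and 18.1%.

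Gbp9 measured 13.6, 17.3 and 9.38 FPKM in the knockouts and 13.0, 10.4 and 1.81 FPKM in the controls. Knockout library 3 lay below controls 1 and 2. The log2 fold change was 0.88 (SE 0.58, 95% interval -0.48 to 2.24, limma adjusted p 0.357), and 0.15 without control library 3.

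Gbp4 measured 2.63, 4.31 and 2.18 FPKM in the knockouts and 6.96, 5.32 and 0.533 FPKM in the controls. Here controls 1 and 2 were above all knockouts and control 3, with 101 reads, was below all of them. The log2 fold change of -0.11 had a 95% interval from -1.48 to 1.26 (limma adjusted p 0.920). It was -0.85 without control library 3 (limma adjusted p 0.0591) and between 0.045 and 0.34 with a pseudocount of 0.1, with voom, or without knockout library 3, control library 1 or control library 2, so its direction was not fixed by these data. The ratios by replicate number, 0.378, 0.811 and 4.10, ran in both directions.

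Gbp8 was close to the limit of detection, with 36, 24 and 20 reads in the knockouts (0.195, 0.129 and 0.111 FPKM) and 59, 37 and 15 reads in the controls (0.340, 0.216 and 0.0943 FPKM). It did not reach a mean of 1 FPKM in either group and was not tested. Of the family genes beside the 8, Gbp2b on chromosome 3 had 13, 17 and 11 reads in the knockouts and 106, 72 and 2 in the controls, and Gbp10 on chromosome 5 had 38, 47 and 15 against 50, 52 and 9. Both were under the same limit, and Gbp11 was not analysed here. Gbp2b lies between Gbp3 and Gbp2 on the chromosome, and its promoter window (chr3:142594597-142594896) also held the ISRE core, 137 to 128 bases before the start, although it was at low levels in these libraries.

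**Figure D2:**
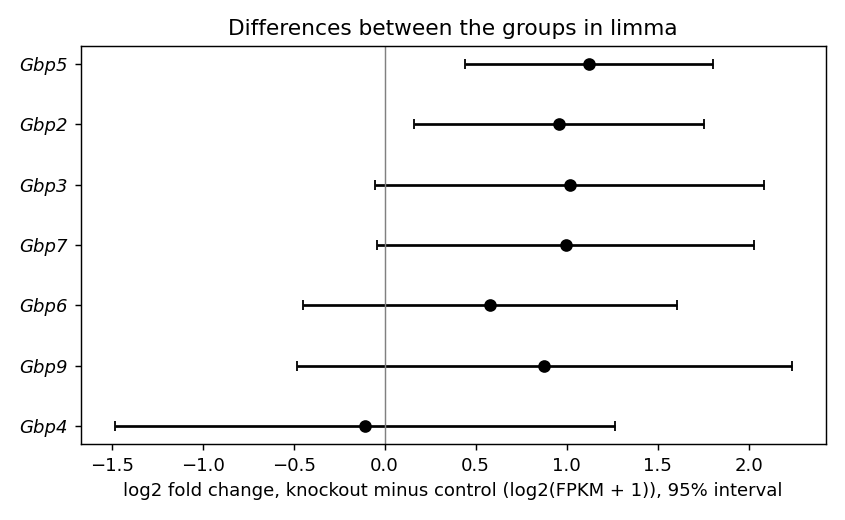
Log2 fold change of the 7 tested genes, knockout minus control on log2(FPKM + 1), as points with 95% intervals from limma. The intervals of Gbp5 and Gbp2 lie above 0, those of Gbp3 and Gbp7 reach just below it, and that of Gbp4 extends about equally to both sides.

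By level per length, the order was Gbp5, Gbp2, Gbp3, Gbp7, Gbp6, Gbp9, Gbp4 and Gbp8 in the knockouts, and the same in the controls except that Gbp2 (228 FPKM) stood before Gbp5 (224 FPKM). Gbp5 and Gbp2 differed by less than their spread in both groups, and Gbp2 was the higher of the pair in control library 1 alone. Every other pair of neighbours kept its order in each of the 6 libraries, although between libraries the levels of Gbp3 and Gbp7 (109.7 ± 57.0 and 54.9 ± 28.7 FPKM) and of Gbp9 and Gbp4 (8.40 ± 5.85 and 4.27 ± 3.34 FPKM, SD, n = 3 each) varied widely in the controls.

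The summed level of the 8 genes was 1317, 1477 and 967 FPKM in the knockouts and 882, 755 and 346 FPKM in the controls. Chromosome 3 genes held 95.5, 95.4 and 95.05% of it in the knockouts and 92.2, 93.5 and 95.7% in the controls. The composition was nearly constant among the knockouts, where Gbp5 held 37.6, 38.1 and 38.2% and Gbp2 33.5, 33.9 and 33.4%. It varied more among the controls, where Gbp5 held 31.1, 34.3 and 39.9%. The share of Gbp4 was 0.200, 0.292 and 0.226% in the knockouts and 0.790, 0.704 and 0.154% in the controls, with control library 3 below the knockouts and the other controls above.

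**Figure D3:**
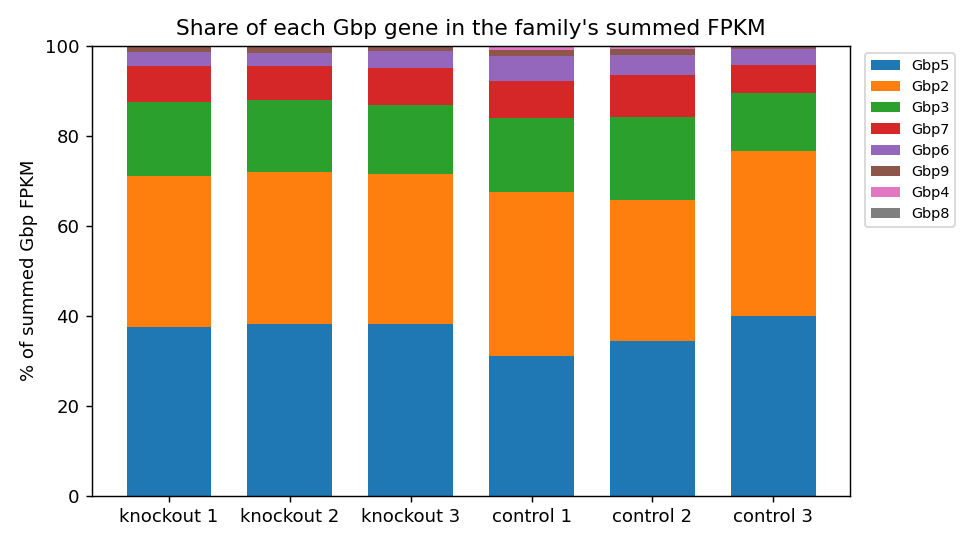
Share of each gene in the summed FPKM of the 8 genes, 1 stacked bar per library on an axis from 0 to 100%. The bars of the 3 knockout libraries are alike, and Gbp5 takes 31.1% in control library 1 and 39.9% in control library 3.

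Within the controls the family moved together. Control library 3 had the lowest level of all 6 libraries for 8 of the 8 genes (13.3% of genes tested), and library 3 was the lowest of its group in both groups for all 8 (9.77%). Its level was 51.8% of the mean of controls 1 and 2 for Gbp5, 45.7% for Gbp2, 30.2 to 33.9% for Gbp3, Gbp6, Gbp7 and Gbp8, 15.5% for Gbp9 and 8.69% for Gbp4. Knockout library 3 was at 60.6 to 82.2% of the mean of knockouts 1 and 2. In both groups Gbp9 and Gbp4 were among the 3 genes with the lowest remaining share, and Gbp5 among the 3 with the highest. Genes of the same cell respond to shared conditions, so the 8 genes do not count as 8 separate observations of this library.

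Without control library 3, the median log2 fold change of the 7 tested genes was 0.44 in place of 0.96, and Gbp5 passed. In that fit 1278 of all 9030 genes passed, against 660 with all libraries. The values of Gbp2, Gbp3 and Gbp7 were then 0.59, 0.46 and 0.44. The median over all genes tested was -0.11 with all libraries, and 0.01 after scaling by the median of ratios, where the median of the members was 1.10. Of the 7 tested genes 6 had a log2 fold change above 0 (36.5% of all genes).

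**Figure D4:**
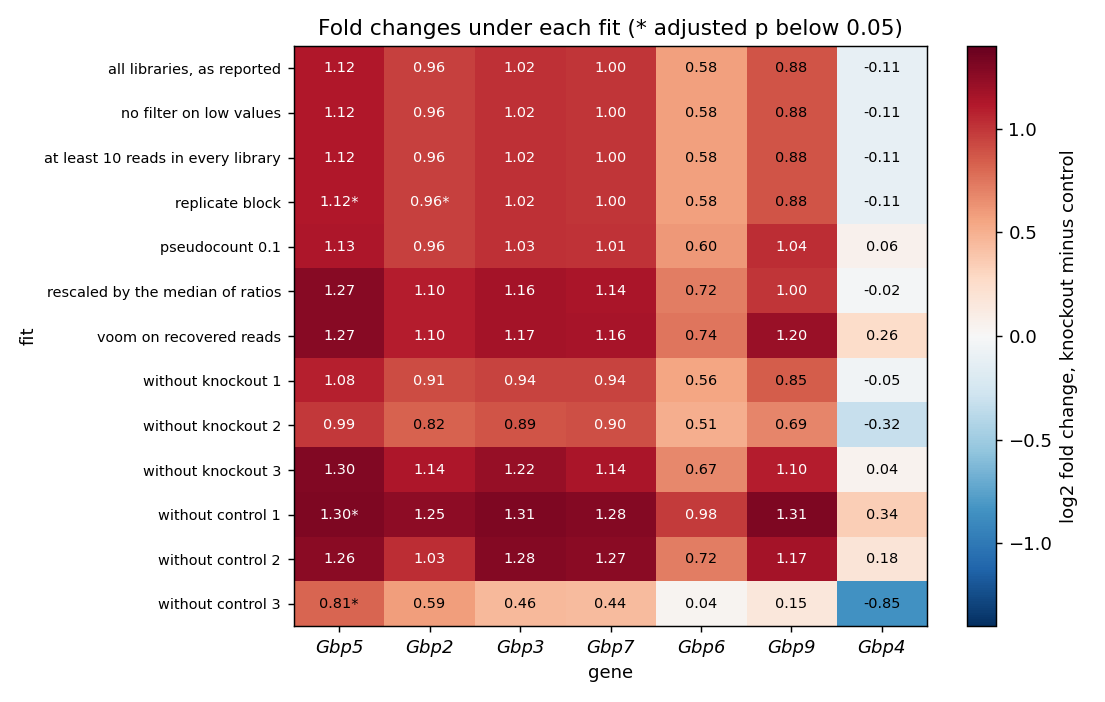
Log2 fold change of the 7 tested genes (columns) under each fit (rows), coloured from blue (lower in the knockouts) to red (higher), with the value in each cell and an asterisk where the adjusted p was under 0.05. Gbp5 carries an asterisk in 3 fits and Gbp2 in 1, and the row without control library 3 has the lowest value of every gene.

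The signals that induce the family were examined next. Ifng, which encodes interferon-γ, had 14, 12 and 8 reads in the knockouts (0.275, 0.235 and 0.161 FPKM) and 38, 32 and 3 reads in the controls (0.796, 0.679 and 0.0685 FPKM). It was thus higher in controls 1 and 2 than in any knockout and lowest in control library 3, as Gbp4 was. Ifnb1, encoding interferon-β, had 19, 27 and 36 reads in the knockouts and 6 in each control, with no overlap between groups. Neither reached the mean of 1 FPKM for the test, though Ifnb1 passed where no filter was applied. Of 9 interferon, receptor and kinase genes 7 were tested, and none passed in limma or voom or had an unadjusted limma p under 0.05. The receptor chains Ifngr1 (log2 fold change -0.31) and Ifngr2 (0.28) were measured at 13.5 and 16.9 FPKM and at 61.2 and 50.3 FPKM in knockouts and controls. Jak1 and Jak2, the kinases of the interferon-γ receptor, had log2 fold changes of 0.06 and -0.01.

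Of 7 transcription factors of the pathway 2 rose and none fell (2.57% of all genes tested were called higher), with 7 of 7 values above 0 (36.5% of all genes). With the block Irf2, which binds the same promoter elements as Irf1, also passed (log2 fold change 0.68, limma adjusted p 0.0372). Irf1, a direct activator of Gbp promoters, measured 187, 179.8 and 162 FPKM in the knockouts and 75.3, 65.6 and 76.7 FPKM in the controls. The groups were far apart, and control library 3 was not the lowest control. Its log2 fold change was 1.27 (SE 0.13, limma adjusted p 0.0065), and the limma adjusted p was 0.0519 without knockout library 1 and 0.0551 without control library 2. Stat2, which acts with Irf9 downstream of type I interferons, measured 98.8, 84.6 and 75.6 FPKM in the knockouts and 51.2, 36.5 and 23.3 FPKM in the controls (log2 fold change 1.26, SE 0.27, limma adjusted p 0.0383). This call ended without the filter on low values, with rescaling or voom, and without any 1 knockout library or control library 2 (limma adjusted p 0.0521 to 0.154).

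Irf9 stood at 35.6 ± 1.61 and 31.7 ± 3.16 FPKM (SD, n = 3 each). The NF-κB subunit genes Nfkb1 and Rela had log2 fold changes of 0.13 and 0.14 (limma adjusted p 0.587 and 0.631).

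Among 5 inhibitors of interferon signalling none passed in limma or voom, and 2 had an unadjusted limma p under 0.05 (27.6% of all genes). The highest mean levels were those of Socs3, a feedback inhibitor of cytokine receptors (log2 fold change 1.37, limma adjusted p 0.139), and Usp18, which restrains the type I interferon receptor (1.21, limma adjusted p 0.126). Both passed with the replicate block (limma adjusted p 0.0219 and 0.0459).

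The immunity-related GTPases are the smaller interferon-induced GTPases that act on the same vacuoles. Of 8 tested, 7 had values above 0 (36.5% of all genes) and 3 had an unadjusted limma p under 0.05 (27.6%). None passed in limma or voom, and the median log2 fold change was 0.96, as for the Gbp genes. Irgm1, a regulator of the others, measured 285, 301 and 261 FPKM in the knockouts and 206, 157 and 92.2 FPKM in the controls, with a limma adjusted p of 0.0768, and of 0.0485 with the block. Iigp1, an effector that lines vacuoles, measured 3.80, 9.23 and 4.16 FPKM in the knockouts and 16.3, 15.7 and 1.10 FPKM in the controls, so that, as for Gbp4, controls 1 and 2 were above the knockouts and control 3 below them (log2 fold change -0.42, limma adjusted p 0.762). Without control library 3 Iigp1 passed as lower in the knockouts, and Irgm1, Irgm2 and Gm12250 of the same list passed as higher. Control library 3 was the lowest of 6 for 8 of these 8 genes (13.3% of genes tested).

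Of 5 autophagy conjugation genes, which direct Gbp proteins to vacuoles, none passed in limma or voom. None had an unadjusted limma p under 0.05, and 2 had values above 0 (36.5% of all genes). Of 8 inflammasome genes Casp4 rose, with 139, 134 and 95.2 FPKM in the knockouts and 78.0, 68.0 and 58.6 FPKM in the controls (log2 fold change 0.83, SE 0.19, limma adjusted p 0.0445). The Casp4 call did not hold without the filter, with rescaling or voom, or without knockout library 1 or 2 or control library 2 or 3 (limma adjusted p 0.0504 to 0.190). Gsdmd, the pore protein cut by caspases, stood at 57.7 ± 8.07 and 56.7 ± 7.86 FPKM, and Casp1 at 105 ± 15.9 and 95.5 ± 22.7 FPKM (SD, n = 3 each). Il1b, the cytokine cut by caspase-1 and the most abundant of the list, measured 1410.3, 916 and 653 FPKM in the knockouts and 2625, 1536 and 418 FPKM in the controls, so that the groups overlapped (log2 fold change -0.33, limma adjusted p 0.765). Nlrp3, an inflammasome sensor, was lower in every knockout than in any control, at 160.2 ± 23.3 and 196 ± 13.1 FPKM (SD, n = 3 each, log2 fold change -0.30, limma adjusted p 0.236). Aim2, a sensor of DNA, had a log2 fold change of 0.74 (limma adjusted p 0.0944, and 0.0332 with the block).

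Of 5 other targets of interferon-γ, Cd274, encoding PD-L1, rose, and Ciita, the activator of MHC class II genes, measured lower in every knockout. Cd274 measured 631, 614 and 468 FPKM in the knockouts and 319, 257 and 209 FPKM in the controls (log2 fold change 1.13, SE 0.20, limma adjusted p 0.0220). Ciita measured 0.601, 0.373 and 0.487 FPKM in the knockouts and 1.03, 1.28 and 1.63 FPKM in the controls (log2 fold change -0.63, SE 0.14, limma adjusted p 0.0426), and here control library 3 was the highest. Ciita reached the mean of 1 FPKM needed for the test in the controls alone, where it was high, so its call is given as a description. With the block Ciita did not pass (limma adjusted p 0.0557), while Cxcl10 and Nos2 did. Cxcl9 passed with the block too, but reached 1 FPKM in the knockouts alone (means 1.27 and 0.309 FPKM), so its call is given as a description. Ciita did not pass without the filter on low values or without knockout library 3 either (limma adjusted p 0.0538 and 0.0866). Neither Cd274 nor Ciita passed without knockout library 1, without knockout library 2 or without control library 2 (limma adjusted p 0.105 to 0.107 and 0.121 to 0.189).

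All 10 type I interferon targets tested had values above 0 (36.5% of all genes), with a median of 1.19. An unadjusted limma p under 0.05 was seen for 7 (27.6% of all genes), and none passed in limma or voom. Rsad2, the antiviral protein viperin, averaged 2480 ± 682 FPKM in the knockouts and 869 ± 455 FPKM in the controls (SD, n = 3 each, log2 fold change 1.65, limma adjusted p 0.0724). Isg15, a ubiquitin-like modifier, averaged 958 ± 123 and 600.3 ± 208 FPKM (0.73, limma adjusted p 0.140). Ifit1, which binds viral RNA, averaged 869 ± 168 and 419.9 ± 230 FPKM (1.22, limma adjusted p 0.133). With the block Ifit2, Oas3, Rsad2 and Cmpk2 passed. Control library 3 was the lowest of 6 for 10 of 10 (13.3% of genes tested). Over the 8 companion lists, 5 of the 55 genes tested passed (the lists hold 59), against 7.31% of all genes, and 16 passed with the block, against 9.47%. Ciita among the 5 and Cxcl9 among the 16 entered the test through 1 group alone.

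**Figure D5:**
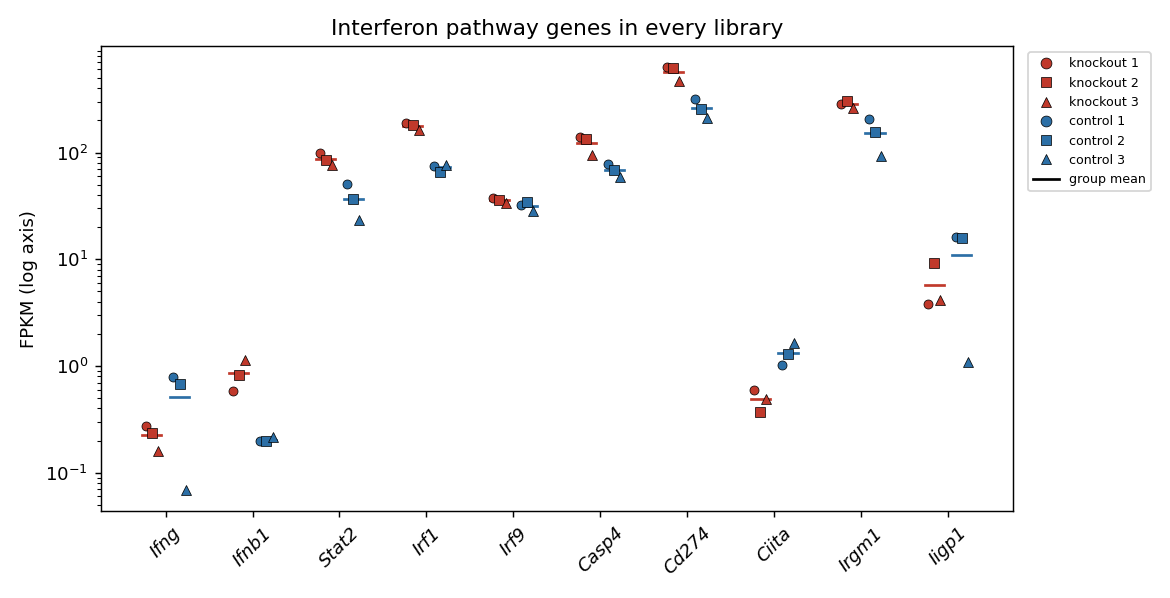
FPKM (log axis) of 10 genes of the interferon pathway in each library, marked as in the plot of Gbp transcripts. Irf1, Stat2, Cd274 and Casp4 have all red points above all blue points, while in Ifng and Iigp1 controls 1 and 2 lie above the knockouts and control 3 below them.

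The pattern of the family over the 6 libraries was compared with that of every other tested gene by the root mean square distance between log2 profiles, each centred on its own mean, to the mean profile of the 7 tested members. The smallest distances among 5387 genes outside the lists with a mean of at least 5 FPKM were those of Ifi213 (0.083), Enpp4 (0.099), Samhd1 (0.106), 1600014C10Rik (0.115) and Tmem67 (0.121). Of the listed genes Il18 (0.097) and Ifi44 (0.109) were as near, and the immunity-related GTPase genes Ifi47 (0.126) and Igtp (0.146) lay close behind. The median over all 9030 genes tested was 0.8. Members lay at 0.134 (Gbp7), 0.142 (Gbp3), 0.153 (Gbp6), 0.197 (Gbp9), 0.204 (Gbp2), 0.292 (Gbp5) and 0.494 (Gbp4). Samhd1, an enzyme that breaks down deoxynucleotides, measured 187, 199 and 127 FPKM in the knockouts and 161, 116 and 39.4 FPKM in the controls. Gbp5 and Gbp4 were thus the members farthest from the family's mean profile, the first with the largest and the second with the smallest fold change.

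Some markers of other peritoneal cells also differed between the groups, while the sums of mesothelial and of T and NK cell markers overlapped. B cell markers (Cd79a, Cd79b, Ms4a1 and Cd22) summed to 10.5 to 11.1 FPKM in the knockouts and 107, 72.6 and 29.3 FPKM in controls 1, 2 and 3. Cd79a fell in the knockouts (limma adjusted p 0.0117, with 4.74% of all genes called lower), and Cd22 had a log2 fold change of 0.01. Markers of large peritoneal macrophages, Timd4 included, summed to 3.83 to 7.71 FPKM and to 143, 89.8 and 34.1 FPKM, and of the 4 tested Prg4 fell (limma adjusted p 0.0083). Icam2, Cd79b and Ms4a1 passed as lower too, but like Timd4 and Selp they reached 1 FPKM in the controls alone, where they were high. Their calls are therefore given as a description. For both lists control library 3 was the lowest control, as it was for the Gbp genes, while the knockouts were lowest of all, unlike for the chromosome 3 Gbp genes. Of 9 T and NK cell markers 7 were listed and none was tested, with sums of 0.195 to 0.473 FPKM in the knockouts and 1.83, 1.32 and 0.339 FPKM in the controls, with control library 3 again the lowest control. Mast cell markers summed to 1.89 to 2.25 FPKM and to 37.5, 37.8 and 49.0 FPKM, and all 5 reached the 1 FPKM needed for the test in the controls alone, where they were high, so the count of those that fell (5) is given as a description. Neutrophil markers summed to 79.3 to 104 FPKM and to 183 to 211 FPKM, and 1 of 4 tested, S100a8, which is the largest part of the sum, fell, while Csf3r had a log2 fold change of 0.46 and did not pass. Mesothelial markers summed to 1.85 to 4.30 FPKM and to 0.0857, 1.05 and 5.32 FPKM in controls 1, 2 and 3, so that control library 3 was the highest of all 6 here, with 1 tested and none passing. With the replicate block, 3 large peritoneal macrophage markers (Timd4 added), 3 B cell markers, 4 mast cell markers (Kit lost) and 2 neutrophil markers (Retnlg added) passed. With voom 1 large peritoneal macrophage marker, 1 B cell marker, 5 mast cell markers and 1 neutrophil marker did. Retnlg, like Timd4, reached 1 FPKM in the controls alone (means 0.962 and 2.33 FPKM in knockouts and controls), so these counts are given as a description. The part of these cells in the Gbp levels was not tested.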

How the data were processed

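RNA of PEMs was measured in 6 libraries, 3 per group, assigned by title. The authors deposited 1 table with FPKM per library, and beside it signal columns with the mean normalized count per group from DESeq2. Its fold change, p-value and q-value columns, from the authors' comparison, were not used. The labels name mm9 as the build; the aligner, counting and annotation are not given in the sources used here.

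Genes with a mean of at least 1 FPKM in a group (9030 of 15415) were fitted with limma 3.58.1 in R 4.3.3 on log2(FPKM + 1), with a trended prior and Benjamini-Hochberg adjustment over all of them (threshold 0.05, two-sided). Fold changes on this scale understate those of low genes. Whole reads were recovered from FPKM and the group means (100% of values whole within 0.01) and used for depth and for voom with TMM factors. The scripts were tested on simulated data.

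Alternatives were no filter, at least 10 reads in every library, the replicate number as a block, a pseudocount of 0.1, rescaling by the median of ratios, voom, and each library left out with the gene set kept. Deviations from the group means of same-numbered libraries correlated at 0.11, 0.11 and 0.30 (other numbers -0.33 to 0.29). Knockout library 2 with control library 1, at 0.29, was above the values of 0.11, so this check does not establish a pairing. No label pairs the libraries, so the block and the ratios by replicate number are given as an alternative only.

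The members and lists were chosen with earlier results of these data known. Some genes were left out of the lists and are not reported here. Named were the members, Gbp2b, Gbp10, Timd4, Lyz2, the called genes of each list with some of its 5 genes of the highest mean level, and the 5 nearest profiles. Ifng, Ifnb1, Ifngr1, Irf2, Aim2, Il18, Ifi44, Csf3r, Retnlg, Cd22, Selp, Ifit2, Oas3 and Iigp1, which fall outside this rule, were added after their values were seen. Promoter windows are RefSeq's, of GRCm38.p6. Shared 50-base stretches were counted over GENCODE transcripts.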

Additional observations from a re-analysis of the deposited data

How the results depend on the processing

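Over the 12 alternatives to the reported fit, Gbp3, Gbp6, Gbp7 and Gbp9 kept their direction and did not pass in any, with log2 fold changes from 0.46 to 1.31, 0.04 to 0.98, 0.44 to 1.28 and 0.15 to 1.31. Gbp2 ranged from 0.59 to 1.25 (limma adjusted p 0.0422 to 0.369) and Gbp5 from 0.81 to 1.30 (limma adjusted p 0.0200 to 0.225), both lowest without control library 3. With the replicate block 2 members passed, Gbp2 at 0.96 and Gbp5 at 1.12, and the block changed no other call among the members. Leaving out 1 library in turn gave 0 to 1 members that passed. Gbp4 turned positive with a pseudocount of 0.1 (0.0611), with voom (0.26) and without knockout library 3 (0.04), control library 1 (0.34) or control library 2 (0.18), and was -0.85 without control library 3; the cause was not tested. Of the companion genes 5 passed, 3 without the filter, 3 after rescaling, 3 with voom, 16 with the block, and 0 to 14 with 1 library left out. Over all genes 660 passed. The count fell to 8 when control library 2 was left out, to 30 for knockout library 1 and to 63 for knockout library 2, and rose to 1278 for control library 3. The share of higher calls was 35.2%, and 51.3% after rescaling. Gbp8, Gbp2b and Gbp10 had too few reads for a test at the filter used. With 3 libraries per group, the exact permutation test cannot go below a p of 0.1.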
